A study of Mus musculus with 75 samples.

Results

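The EBF genes Ebf1, Ebf2 and Ebf3, the RUNX genes Runx1, Runx2 and Runx3, and the mesenchymal transcription factor genes Prrx1, Prrx2, Twist1 and Twist2 were followed through replicative senescence of mouse skin fibroblasts. They were taken by name, 10 of the 24984 genes counted in every RNA-seq library. All 10 had enough reads to enter the test in every experiment. The fibroblasts were isolated from the skin of C57BL/6 mice, 2 months old and female for the passage series, and grown to passages 1, 3, 5 and 7 (P1, P3, P5 and P7). RNA-seq covered 4 libraries of each passage, and ATAC-seq, which maps open chromatin with a transposase, covered P1 with 4 samples and the later passages with 3 samples each. The remaining 28 RNA-seq libraries came from changes of 3 other transcription factors. E2f4 was overexpressed from a doxycycline-inducible lentivirus in 2 libraries, against 2 that carried the control vector. E2f4 was knocked down by the hairpin sh1 in 3 libraries against 3 of a non-targeting hairpin (nt), Tead1 by sh3 and sh4 and Atf3 by sh5 and sh6, with 3 libraries for each hairpin and 3 nt libraries in each experiment. Cells with hairpins were all infected with lentivirus and selected with puromycin. These experiments used cells of 2-month-old and of newborn mice, and which age a library came from was not given in the sources used here. According to the paper, E2f4 was overexpressed in pre-senescent cells and knocked down in proliferating cells. Atf3 was knocked down in pre-senescent cells, and for Tead1 the paper's results name no stage. Nothing in the labels states that replicates were separate cultures or animals, so p-values measure only the spread between these samples, which may be technical.

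EBF proteins are zinc-finger and helix-loop-helix transcription factors that bind DNA as dimers. They are best known as regulators of B cells, and in mesenchyme they take part in the commitment of adipocyte precursors and in the organization of bone marrow stroma. RUNX proteins carry the Runt domain and bind DNA together with the partner CBFB. RUNX1 acts in blood formation, RUNX2 in bone formation and RUNX3 in lymphocytes and sensory neurons, and each gene has a distal and a proximal promoter. PRRX1 and PRRX2 are paired-type homeodomain proteins of limb, craniofacial and skin mesenchyme, and PRRX1 is often used to mark fibroblast lineages. TWIST1 and TWIST2 are basic helix-loop-helix proteins that bind E-boxes and keep mesenchymal cells undifferentiated, and TWIST2 marks dermal fibroblast precursors.

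The libraries held 9147324 to 27552949 reads counted on genes. Summed CPM (reads of a gene per 1000000 counted reads, after TMM scaling) of 16 fibroblast markers was 30425 to 32337 at P1 and 56579 to 65981 at P7, so the labelled cell type was seen at every passage. The summed markers of macrophages, keratinocytes and muscle were highest at P1. The 15 macrophage markers summed to 393 to 598 CPM at P1, 57.3 to 77.8 at P3, 27.1 to 38.9 at P5 and 37.7 to 62.5 at P7. In the same order of passages the 12 keratinocyte markers summed to 81.4 to 478, 6.04 to 9.44, 6.46 to 12.8 and 14.8 to 18.9, and the 12 muscle markers to 158 to 243, 55.7 to 64.1, 30.7 to 58.6 and 39.4 to 111. The sums of the 10 endothelial markers were 246 to 281 at P1 and 143 to 197 at P7, those of the 8 adipocyte markers 32.9 to 48.8 and 5.34 to 7.07, those of the 8 mural markers 142 to 253 and 146 to 245, and those of the 10 glial and melanocyte markers 73.1 to 81.6 and 63.8 to 144. The 11 lymphocyte markers reached at most 2.39 CPM, and Cd3e, Cd3g, Cd8a and Ms4a1 were at 0 at every passage. Against P1, P7 was lower for 14 of 15 tested macrophage markers, 8 of 10 keratinocyte, 8 of 9 muscle and 9 of 10 endothelial markers. In these bulk samples, fewer cells of a type and less RNA per cell cannot be told apart. The part of these cells in the comparisons with P1 was not tested. The fold changes of the members and the counts over gene lists are therefore also given against P3, where the macrophage and keratinocyte sums had already dropped. Against P3, P7 was still lower for 10 of 15 macrophage, 8 of 9 muscle and 9 of 10 endothelial markers. Of 10 keratinocyte markers, 0 were lower and 2 higher. The part of these cells in the comparisons with P3 was not tested either.

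Per kb of exonic length, the order of the levels was nearly the same at P1 and at P7. Twist2 had the highest level, with 93.9 to 105 CPM per kb over the 4 P1 libraries and 119 to 179.7 over the 4 P7 libraries. Prrx1 followed with 69.4 to 71.9 at P1 and 71.1 to 83.6 at P7. Twist1, with 49.8 to 54.7 CPM per kb, stood above Prrx2, with 24.9 to 30.3, at P1, whereas Prrx2 stood above Twist1 at P7 (44.4 to 70.4 against 35.4 to 43.1). These ranges did not overlap at either passage. Ebf1 came next with 19.3 to 20.9 CPM per kb at P1 and 16.6 to 20.6 at P7. The RUNX genes were lower: at P1, Runx1 (12.7 to 14.3 CPM per kb) and Runx3 (10.01 to 13.5) overlapped and Runx2 (5.65 to 6.36) was below both. At P7 Runx1 (7.39 to 8.56) was above the other two, and Runx3 (4.63 to 5.30) overlapped Runx2 (3.69 to 5.77). Ebf2 (1.01 to 1.59 CPM per kb at P1) and Ebf3 (0.544 to 0.906) had the lowest levels, and their ranges did not overlap at P1 or at P7.

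From P1 to P7, Runx3, Runx1 and Ebf3 fell, Prrx2 and Twist2 rose, Ebf2, Runx2 and Twist1 were lower as well, and the changes of Ebf1 and Prrx1 did not pass the test. In all, 2 of the 10 members were higher at P7 than at P1 (Prrx2 and Twist2) and 6 were lower (Ebf2, Ebf3, Runx1, Runx2, Runx3 and Twist1), at an adjusted p under 0.05 in edgeR's quasi-likelihood test. Of all 13442 genes tested, 30.5% were higher and 31.9% were lower. The median log2 fold change was -0.40 over the 10 members and -0.010 over all genes tested. Ebf3, Runx3 and Prrx2 changed by a fold of more than 2, which the study also asked for. Against P3, Prrx2 and Twist2 were higher, beside 24.8% of all genes, and Ebf1, Ebf3, Runx1, Runx2 and Runx3 were lower, beside 26.5%. The plot of levels by passage shows each library.

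**Figure D1:**
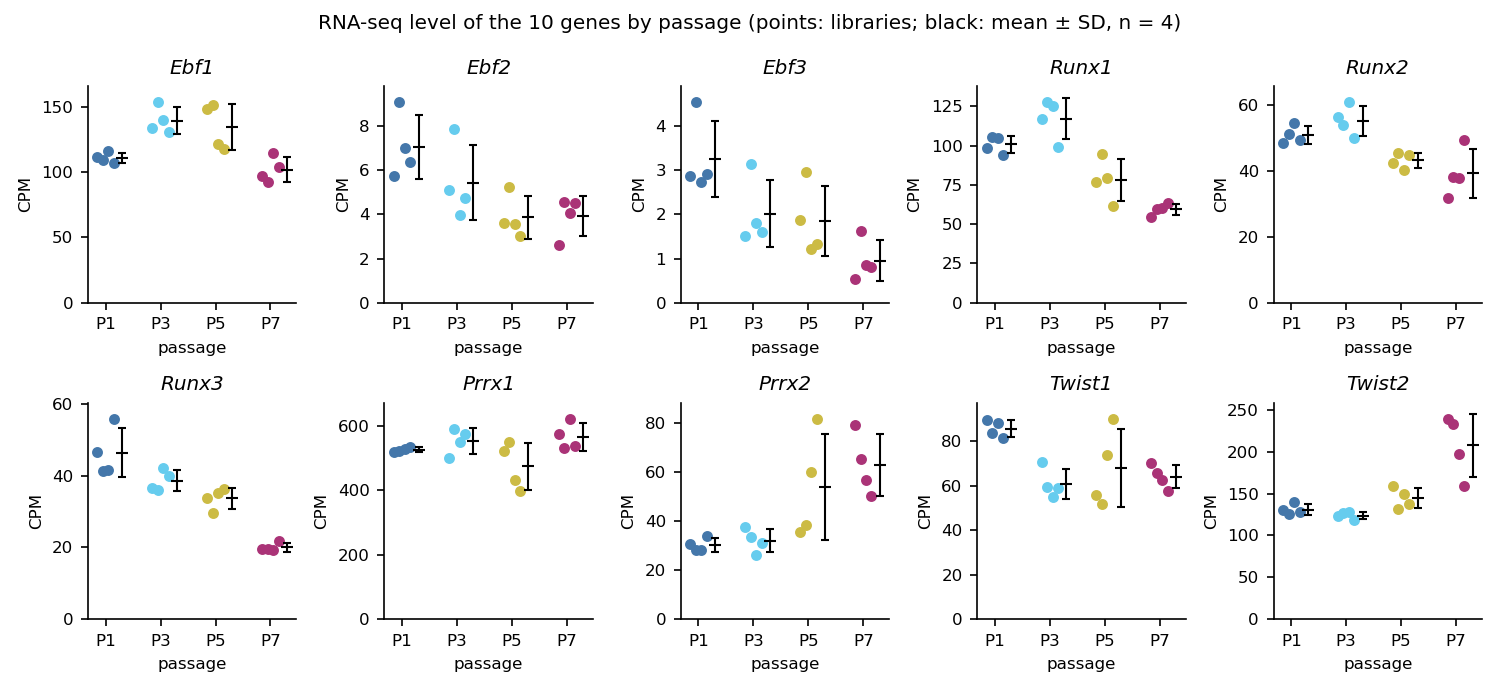
RNA-seq level of each of the 10 genes (CPM, vertical axes from 0) against passage. Coloured points are the 4 libraries of a passage and black bars their mean ± SD. Runx3 lies between 41.4 and 55.9 CPM at P1 and between 19.1 and 21.9 at P7, while the Twist2 libraries of P7 (159 to 239.8) lie above those of P1 (125 to 141).

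Ebf1 (chr11:44618100-45008096 on the plus strand, GRCm38) was the most abundant EBF gene. Its CPM was 112, 109, 116 and 107 in the 4 P1 libraries and 133, 154, 139.6 and 131 at P3. At P5 it was 148, 151, 121 and 117, and at P7 96.8, 92.1, 114 and 104. All P3 libraries were above all P1 libraries, and all P7 libraries were below all P3 and all P5 libraries, while P7 overlapped P1. The log2 fold change was 0.33 (SE 0.0935, adjusted p = 0.0106 from edgeR) for P3 against P1 and -0.40 (SE 0.0939, adjusted p = 0.00578 from edgeR) for P7 against P5. Against P1, P7 differed by -0.12 (SE 0.0939, adjusted p = 0.262 from edgeR), with a 95% interval of -0.32 to 0.073, and against P3 it was -0.45 (SE 0.0939, adjusted p = 5.45e-04 from edgeR), so Ebf1 showed a rise and a later fall rather than a net change that passed the test.

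Ebf2 and Ebf3 were low throughout. Ebf2 (chr14:67233292-67430952), which is known from precursors of brown fat, had 5.75, 9.11, 7.04 and 6.37 CPM at P1 and 2.60, 4.55, 4.07 and 4.53 at P7. All P7 libraries were below all P1 libraries, with a log2 fold change of -0.84 (SE 0.234, adjusted p = 0.00410 from edgeR). At P3 and P5 it ranged from 3.998 to 7.89 and from 3.04 to 5.26, and no single step between neighbouring passages passed the test. Against P3, the P7 value of -0.46 (SE 0.238, adjusted p = 0.110 from edgeR) did not pass and the libraries overlapped. Of its exonic bases, 759 (13.3%) are shared with Gm10860 on the opposite strand, and because the counting ignored strand the reads of both genes cannot be told apart there.

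Ebf3 (chr7:137193671-137322805) had 2.88, 4.55, 2.73 and 2.91 CPM at P1, 1.51, 3.16, 1.81 and 1.61 at P3, 1.87, 2.97, 1.23 and 1.32 at P5 and 0.534, 1.62, 0.845 and 0.816 at P7. Its 4 P7 libraries lay below the 4 P1 libraries, a 3.41-fold lower level with a log2 fold change of -1.77 (SE 0.357, adjusted p = 2.61e-04 from edgeR). Within each passage replicate 2 was the highest library. Against P3 the change was -1.08 (SE 0.372, adjusted p = 0.0210 from edgeR), and that call was lost without replicate 2 of P3 or replicate 1 or 3 of P7 (-1.02 to -0.78, adjusted p = 0.0504 to 0.101 from edgeR). Its P7 level rested on 50 reads over 4 libraries.

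Runx3 (chr4:135120645-135177990) fell most at the last step. Its CPM was 46.6, 41.4, 41.7 and 55.9 at P1, 36.5, 35.9, 42.1 and 39.8 at P3, 33.9, 29.6, 35.1 and 36.4 at P5 and 19.5, 19.6, 19.1 and 21.9 at P7. Every P7 library was below every library of the earlier passages. The level at P7 was 2.32-fold below that at P1, a log2 fold change of -1.21 (SE 0.106, adjusted p = 8.02e-09 from edgeR). Against P3 it was -0.95 (SE 0.106, adjusted p = 6.93e-07 from edgeR) and against P5 -0.75 (SE 0.106, adjusted p = 5.97e-05 from edgeR), so most of the fall lay between P5 and P7. The step from P1 to P3 was -0.27 (SE 0.102, adjusted p = 0.0493 from edgeR), its libraries overlapped, and the call was lost without replicate 1 or 4 of P1, any of replicates 1, 2 or 4 of P3, replicate 1 or 3 of P5 or replicate 2 or 3 of P7 (-0.28 to -0.17, adjusted p = 0.0558 to 0.217 from edgeR).

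Runx1 (chr16:92601466-92826074) had 98.3, 106, 105 and 94.0 CPM at P1, 117, 128, 125 and 99.0 at P3, 76.6, 94.5, 79.3 and 61.6 at P5 and 54.5, 59.5, 60.1 and 63.2 at P7. Its P7 libraries were all below those of P1 and P3 and overlapped those of P5. It did not pass the test from P1 to P3 (0.22, SE 0.107, adjusted p = 0.124 from edgeR). It then fell by steps, with a log2 fold change of -0.59 (SE 0.108, adjusted p = 6.81e-04 from edgeR) from P3 to P5 and -0.40 (SE 0.109, adjusted p = 0.0171 from edgeR) from P5 to P7, the last of which was lost without replicate 2 of P5 (-0.29, adjusted p = 0.0697 from edgeR). Between P1 and P7 the change was -0.76 (SE 0.109, adjusted p = 5.76e-06 from edgeR), or 1.70-fold lower at P7, and between P3 and P7 it was -0.98 (SE 0.109, adjusted p = 6.38e-07 from edgeR).

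Runx2 (chr17:44495987-44814797) moved least of the RUNX genes. It had 48.4, 51.2, 54.4 and 49.2 CPM at P1, 49.96 to 60.8 at P3, 40.3 to 45.2 at P5 and 31.6, 38.0, 37.7 and 49.4 at P7. Replicate 4 of P7 lay within the range of P1 and the other 3 P7 libraries lay below it. The log2 fold change was -0.37 (SE 0.108, adjusted p = 0.00519 from edgeR) against P1 and -0.49 (SE 0.108, adjusted p = 8.48e-04 from edgeR) against P3. Its step from P3 to P5, -0.36 (SE 0.107, adjusted p = 0.0181 from edgeR), was lost without replicate 3 of P3 or replicate 3 of P5 (-0.32 to -0.31, adjusted p = 0.0587 to 0.0675 from edgeR).

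The 2 PRRX genes differed. Prrx1 (chr1:163245119-163315145), with a mean of 526 ± 7.78 CPM (SD, n = 4) at P1, had 575, 529.9, 623 and 536 CPM in the P7 libraries, which overlapped the 517 to 536 of P1. Its change of 0.11 (SE 0.0955, adjusted p = 0.342 from edgeR) did not pass, with a 95% interval of -0.093 to 0.31, nor did that of 0.032 (SE 0.0955, adjusted p = 0.803 from edgeR) from P3. Prrx2 (chr2:30845064-30881251) had 30.7, 28.4, 28.2 and 34.2 CPM at P1, 37.7, 33.6, 26.0 and 31.2 at P3, 35.5, 38.7, 60.4 and 82.0 at P5 and 79.5, 65.7, 57.0 and 50.2 at P7. All 4 P7 libraries were above all libraries of P1 and P3. The level was 2.08-fold higher at P7 than at P1, with a log2 fold change of 1.05 (SE 0.205, adjusted p = 1.76e-04 from edgeR), and against P3 it was 0.97 (SE 0.204, adjusted p = 6.20e-04 from edgeR). At P5, replicates 1 and 2 were near the P3 range and replicates 3 and 4 in the range of P7 or above it, and the step from P3 to P5 (0.75, SE 0.204, adjusted p = 0.0104 from edgeR) was lost without replicate 4 of P5 (0.48, adjusted p = 0.0570 from edgeR).

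The TWIST genes moved in opposite directions. Twist2 (chr1:91801461-91848034) had 130.1, 125, 141 and 128 CPM at P1, 123, 127, 128 and 118 at P3, 159, 132, 149 and 138 at P5 and 239.8, 234, 198 and 159 at P7. Every P7 library was above every P1 and P3 library, and replicate 4 of P7 lay at the upper end of P5. The log2 fold change was 0.66 (SE 0.104, adjusted p = 1.70e-05 from edgeR) against P1, 0.75 (SE 0.104, adjusted p = 9.87e-06 from edgeR) against P3 and 0.52 (SE 0.104, adjusted p = 0.00170 from edgeR) against P5, a 1.58-fold rise from P1. Twist1 (chr12:33957671-33959831) had 89.2, 83.5, 88.3 and 81.2 CPM at P1, 70.4, 59.3, 54.7 and 59.0 at P3, 55.7, 51.8, 73.9 and 90.1 at P5 and 70.3, 65.6, 62.6 and 57.7 at P7. Its fall came at the first step, with -0.49 (SE 0.133, adjusted p = 0.00783 from edgeR) for P3 against P1, and it was -0.42 (SE 0.133, adjusted p = 0.0103 from edgeR) for P7 against P1. In both comparisons the libraries did not overlap.

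Between neighbouring passages few members passed the test. From P1 to P3, 1 member was higher (Ebf1) and 2 were lower (Runx3 and Twist1), while 16% and 17.5% of all genes were. From P3 to P5, Prrx2 was higher, beside 13.4% of all genes, and Runx1 and Runx2 were lower, beside 15.3%. From P5 to P7, Twist2 was higher, beside 7.67% of all genes, and 3 members, Ebf1, Runx1 and Runx3, were lower, beside 9.10%.

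The libraries also differed in how their counts depended on GC content, and the members span a wide range of it, from 41.1% of exonic bases in Prrx1 to 62.6% in Prrx2. As a measure of this trend, the median log2 deviation from the mean over the experiment's libraries was taken in the 10% of genes with the lowest exonic GC content and subtracted from that in the 10% with the highest. It lay at -0.15 to -0.0044 in the P1 libraries, -0.61 to -0.056 at P3, -0.29 to 0.59 at P5 and 0.12 to 0.65 at P7. The 4 P5 libraries stood at -0.013, -0.29, 0.47 and 0.59 in the order of their replicates, and replicates 3 and 4 were also the ones with the higher Prrx2 and Twist1 values at P5. An alternative that removed each library's trend was added after the data had been seen. In it, all 8 members that passed for P7 against P1 passed in the same direction, and Prrx1 passed as well, with 0.31 (adjusted p = 4.31e-04 from edgeR) against P1 and 0.39 (adjusted p = 6.78e-05 from edgeR) against P3. For P7 against P1, Ebf3 (-1.78) and Runx3 (-1.27) stayed beyond a 2-fold change. Prrx2, at 0.86 (adjusted p = 3.03e-05 from edgeR), was then below it. Twist1 turned to -0.20 (adjusted p = 0.0424 from edgeR) for P7 against P3, from 0.074 (SE 0.134, adjusted p = 0.669 from edgeR). The call of Runx3 for P3 against P1 was lost, at -0.14 (adjusted p = 0.304 from edgeR). Its step from P3 to P5 passed, at -0.36 (adjusted p = 0.0154 from edgeR), from -0.19 as counted (adjusted p = 0.164 from edgeR). The step from P5 to P7 was -0.77 (adjusted p = 3.97e-05 from edgeR).

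Partners and inhibitors of these factors changed in both directions. Of 21 such genes, all tested, 6 were higher and 8 were lower at P7 than at P1, with a median log2 fold change of -0.036 (all genes tested, -0.010). Against P3 these counts were 7 and 5, with a median of -0.020. Those with the greatest changes were Zfp423, a zinc-finger partner of EBF proteins, at -2.45 (SE 0.221, adjusted p = 1.29e-08), the EBF family member Ebf4 at 1.52 (SE 0.262, adjusted p = 4.89e-05), and Id2, an inhibitor of basic helix-loop-helix factors, at -1.50 (SE 0.221, adjusted p = 8.46e-06), each from edgeR. The CPM of Zfp423 was 7.12 ± 0.726 at P1 and 1.29 ± 0.3901 at P7 (SD, n = 4), that of Ebf4 1.78 ± 0.660 at P1 and 5.12 ± 0.900 at P7, and that of Id2 25.5 ± 2.38 at P1 and 9.05 ± 2.24 at P7. Among 37 other mesenchymal transcription factor genes, 30 were tested, of which 7 were higher and 9 lower, with a median of 0.030, whereas 3 were higher and 10 lower against P3, with a median of -0.060. The homeobox gene Alx4 fell from 49.8 to 4.001 CPM, a log2 fold change of -3.63 (SE 0.418, adjusted p = 3.62e-07) from edgeR. The forkhead gene Foxf1 rose by 2.54 (SE 0.259, adjusted p = 6.97e-08) and the LIM homeobox gene Lhx9 by 2.51 (SE 0.476, adjusted p = 1.37e-04) in the same test, both from levels under 2 CPM at P1. Against P3, Zfp423 -1.02 (SE 0.237, adjusted p = 0.00139), Ebf4 1.95 (SE 0.272, adjusted p = 9.54e-06), Alx4 -2.53 (SE 0.419, adjusted p = 5.98e-05) and Lhx9 1.42 (SE 0.421, adjusted p = 0.00845) passed in the same direction in edgeR, while Id2 -0.18 (SE 0.228, adjusted p = 0.517) and Foxf1 0.39 (SE 0.221, adjusted p = 0.150) did not pass.

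Genes known to act downstream of these families were followed as well. Of 14 skeletal genes downstream of RUNX2, only 5 had enough reads to be tested, and 2 were higher and 2 lower at P7. Against P3, 1 of these 5 genes passed, Spp1, at 1.16 (SE 0.153, adjusted p = 5.00e-06) from edgeR. Spp1, which encodes osteopontin, was 2.12 (SE 0.157, adjusted p = 8.13e-10), Col10a1, a collagen of hypertrophic cartilage, 2.36 (SE 0.550, adjusted p = 0.00100), and the alkaline phosphatase gene Alpl -2.42 (SE 0.304, adjusted p = 1.16e-06), each from edgeR. Spp1 is also made by macrophages, whose summed markers were lower at P7, and the part of macrophages in its change was not tested. Of 13 adipogenic genes downstream of EBF factors, 9 were tested, 1 was higher and 7 were lower, with a median of -1.02, whereas 2 were higher and 3 lower against P3, with a median of -0.40. Cebpd, an early adipogenic factor, rose by 1.93 (SE 0.192, adjusted p = 5.13e-08) from edgeR. Fabp4, a fatty acid binding protein, had 50.5 ± 6.64 at P1 and 3.902 ± 2.28 at P7 CPM, and Cd36, a fatty acid transporter, 61.8 ± 10.3 at P1 and 0.0191 ± 0.0382 at P7. Against P3, Cebpd 1.20 (SE 0.186, adjusted p = 3.00e-05) and Cd36 -7.09 (SE 0.618, adjusted p = 2.45e-08) passed in edgeR and Fabp4 -0.59 (SE 0.312, adjusted p = 0.122) did not. Fabp4 and Cd36 are also used by endothelial cells and macrophages, whose markers were lower at P7, and the part of those cells was not tested. Of the 16 fibroblast markers, 7 were higher, with Fn1 at 2.35 (SE 0.153, adjusted p = 1.20e-10) and Col3a1 at 2.00 (SE 0.139, adjusted p = 3.14e-10), and 4 were lower, with Lum at -1.96 (SE 0.258, adjusted p = 2.11e-06), from edgeR. Against P3 these counts were 4 and 2.

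The genes whose log2 CPM followed each member most closely over the 16 passage libraries, of 11541 or 11542 genes ranked, are given as a description, since the libraries fall into 4 passages and neighbours in such a ranking share the passage pattern. Ebf1 was followed by Vcan (Pearson's r = 0.933) and Usp3 (0.923), Ebf2 by Etnk1 (Pearson's r = 0.888) and Eif2ak4 (0.866) and Ebf3 by Slc35b4 (Pearson's r = 0.905) and Dab2 (0.898). For the RUNX genes they were Baz1a (Pearson's r = 0.962) and Ppp1r15b (0.952) for Runx1, Ndst3 (Pearson's r = 0.913) and Notch1 (0.912) for Runx2 and Pde2a (Pearson's r = 0.976) and Mthfd1l (0.963) for Runx3. Prrx1 was closest to Map4k5 (Pearson's r = 0.916) and Slc25a46 (0.866) and Prrx2 to Fam173a (Pearson's r = 0.973) and Ergic3 (0.969). For Twist1 they were Hspbp1 (Pearson's r = 0.933) and Mfsd10 (0.929), and for Twist2 Prdx6 (Pearson's r = 0.949) and Tssc4 (0.938). No member was among the closest pair of genes of another member.

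At their promoters, the distal Runx3 start, the Ebf3 start and the Twist1 start lost peak strength with passage, and the distal Runx2 start gained it. Starts annotated within 1000 bases of each other were joined, which gave 15 start regions for the 10 genes, and the strongest peak within 1000 bases of a start was ranked among all peaks of its sample by the peak caller's −log10 p. A percentile of 100 is thus the strongest peak of the sample and 0 means no peak. Of the 15 regions, 2 had a higher percentile in every P7 sample than in every P1 sample and 5 a lower one. Over all 19417 start regions with a peak in any sample, 13.3% were higher and 28.6% lower in this way, and the median percentile was 83.9 at P1 and 80.6 at P7. The lists hold no read counts, so the depth behind a peak is unknown. The exact two-sided permutation tests of 4 against 3 samples cannot give a p below 0.0286, and the p-values of the 15 regions are not adjusted.

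**Figure D2:**
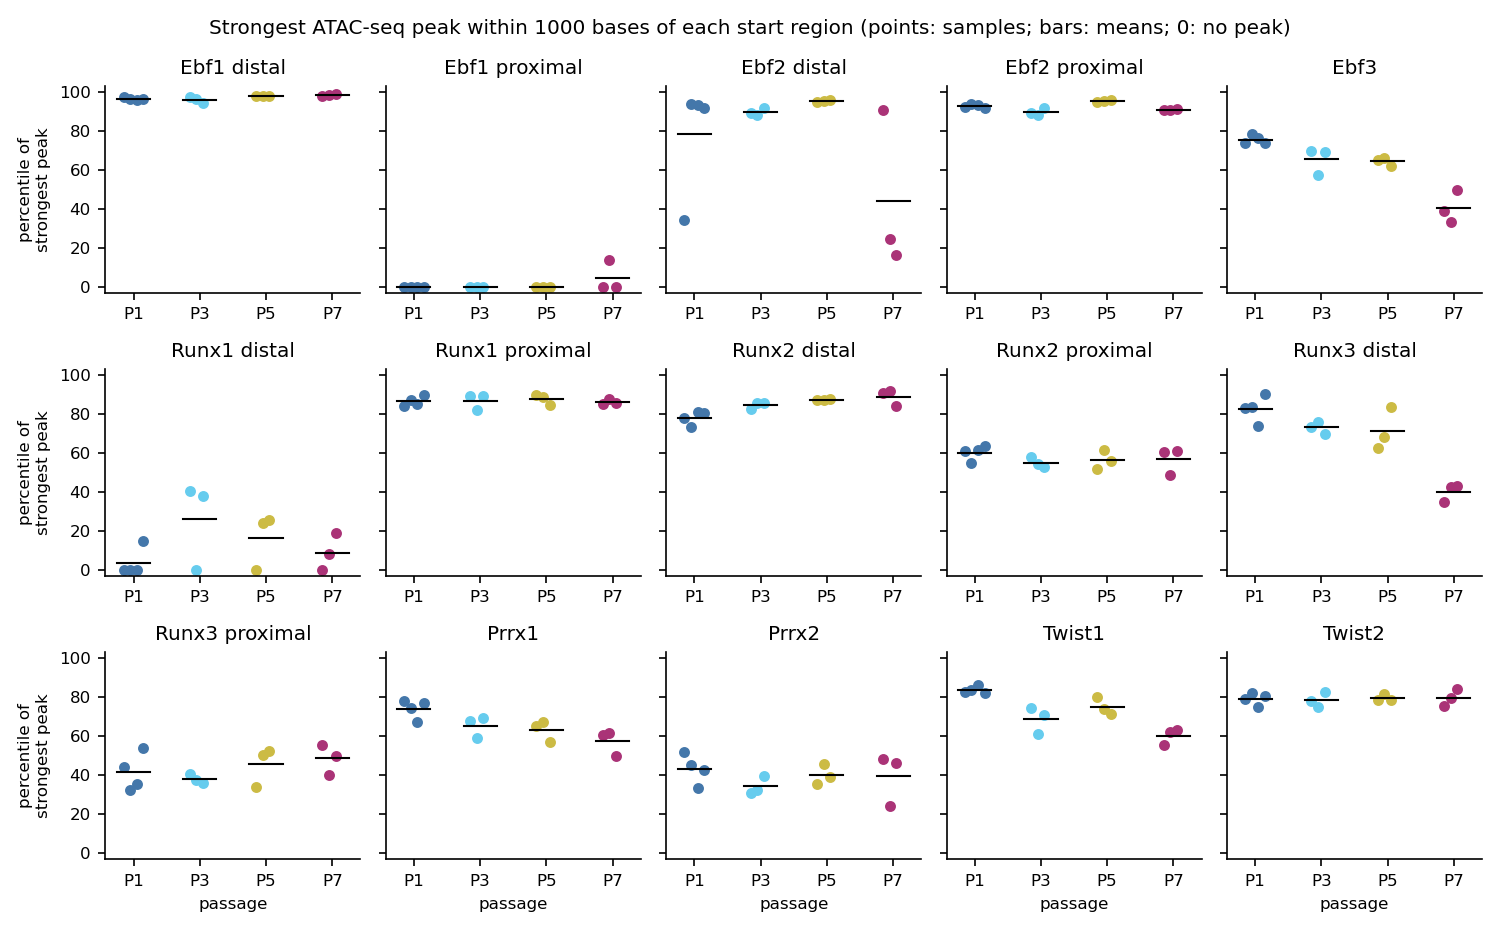
Percentile of the strongest ATAC-seq peak within 1000 bases of each of the 15 start regions (vertical axis, 0 to 100, 0 for no peak) against passage, with 1 point per sample and bars at the means. The distal Runx3 region falls from 82.7 ± 6.83 at P1 to 40.2 ± 4.51 (SD) at P7, while the proximal Runx3 region overlaps between those passages.

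The Runx3 starts lie apart, at 135120645 and 135152545 of chromosome 4. At the distal start the percentile was 83.2, 83.5, 73.8 and 90.4 in the 4 P1 samples, 73.6, 76.1 and 69.8 at P3, 62.7, 68.2 and 83.5 at P5 and 35.02, 42.7 and 42.9 at P7. All P7 samples were below all earlier samples. The difference from P1 was -42.5 percentile points (exact permutation test, p = 0.0286), and the bases covered by peaks within the window fell from a mean of 974.8 to 514 (exact p = 0.0286). At the proximal start the percentile was 44.3, 32.5, 35.4 and 54.0 at P1 and 55.8, 40.3 and 50.04 at P7, which overlapped (exact p = 0.314). The 250 bases upstream of each start are shown because the 2 promoters of this gene behaved differently while its RNA fell. Sequences are from RefSeq on GRCm38.p6, in the direction of transcription, with matches to the RUNX consensus TGTGGTT or its complement AACCACA in capitals. The distal sequence holds 2 matches and the proximal none.
Runx3 distal promoter, chr4:135120395-135120644, + strand: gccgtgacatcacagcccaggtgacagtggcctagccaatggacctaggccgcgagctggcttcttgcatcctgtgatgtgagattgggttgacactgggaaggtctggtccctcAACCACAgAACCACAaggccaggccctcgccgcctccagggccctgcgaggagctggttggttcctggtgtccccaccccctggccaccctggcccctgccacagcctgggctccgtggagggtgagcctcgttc
Runx3 proximal promoter, chr4:135152295-135152544, + strand: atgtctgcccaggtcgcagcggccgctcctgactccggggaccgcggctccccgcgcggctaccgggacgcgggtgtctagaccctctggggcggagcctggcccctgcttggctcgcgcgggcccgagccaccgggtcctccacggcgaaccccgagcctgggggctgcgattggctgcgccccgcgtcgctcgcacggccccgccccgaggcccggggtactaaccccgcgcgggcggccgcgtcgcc

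For Runx2 the distal start gained strength. Its percentile was 78.0, 73.1, 80.8 and 80.5 at P1, 82.5, 85.5 and 85.8 at P3, 87.3, 87.0 and 87.7 at P5 and 90.6, 92.1 and 84.3 at P7, so every later sample stood above every P1 sample. P7 was 10.9 points above P1 (exact permutation test, p = 0.0286), and with the same number of peaks from every sample the exact p was 0.0571. At the proximal start the percentile was 60.9, 54.9, 61.4 and 63.5 at P1 and 60.6, 48.5 and 61.1 at P7 and overlapped, while the covered bases fell from 1462 to 1261 (exact p = 0.0286). At the distal start the covered bases went from a mean of 838.5 at P1 to 681.7 at P7 and overlapped (exact p = 0.0857). Runx2 RNA was lower at P7, so the RNA and the distal percentile moved in opposite directions, while the distal covered bases did not rise. The distal promoter, shown as the region that gained in percentile, holds none of the 4 motifs searched.
Runx2 distal promoter, chr17:44814798-44815047, - strand: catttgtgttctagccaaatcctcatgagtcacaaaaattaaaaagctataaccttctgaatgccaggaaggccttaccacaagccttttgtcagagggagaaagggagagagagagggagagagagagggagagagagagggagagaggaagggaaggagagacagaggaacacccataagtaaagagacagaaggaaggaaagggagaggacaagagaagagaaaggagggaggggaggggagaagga

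Runx1 had a strong proximal peak, with percentiles of 84.0, 87.1, 85.0 and 89.8 at P1 and 85.2, 87.8 and 85.6 at P7 (exact p = 0.886). The P1 and P7 samples overlapped. Its distal start, the one used in blood cells, had a peak in 1 of 4 P1 samples and in 2 of 3 samples of each later passage, at percentiles of 40.7 or below. Neither start differed between P1 and P7 beyond the spread between samples, while Runx1 RNA fell.

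Ebf1 had the strongest promoter peak of the 15 at its distal start, with percentiles of 97.1, 96.5, 95.9 and 96.1 at P1, 97.2, 96.2 and 94.5 at P3, 97.8, 97.7 and 98.0 at P5 and 98.0, 98.3 and 98.7 at P7. The P7 samples were all above the P1 samples, by 1.93 points on average (exact p = 0.0286). This rests on the window: with 500 bases on each side the difference was -57.6 points (exact p = 0.143). The proximal start had no peak except in 1 P7 sample. The distal promoter is shown because its RUNX match lies near the start and because it carried this peak.
Ebf1 distal promoter, chr11:44617850-44618099, + strand: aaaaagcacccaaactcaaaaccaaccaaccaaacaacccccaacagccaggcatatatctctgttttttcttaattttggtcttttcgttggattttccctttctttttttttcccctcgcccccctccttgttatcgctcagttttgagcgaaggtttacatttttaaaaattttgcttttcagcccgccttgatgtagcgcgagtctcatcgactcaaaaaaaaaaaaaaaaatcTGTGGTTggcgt

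Ebf3 lost promoter peak strength, and at the proximal Ebf2 start the bases covered by peaks fell. At the Ebf3 start the percentile was 73.5, 78.2, 76.1 and 73.7 at P1, 69.7, 57.3 and 69.3 at P3, 65.1, 65.9 and 62.0 at P5 and 38.9, 33.0 and 49.9 at P7. Every later sample was below every P1 sample, and every P7 sample was below all others, with a difference of -34.8 points from P1 (exact p = 0.0286). The covered bases fell from 1184 to 518 without overlap (exact p = 0.0571). At the proximal Ebf2 start the covered bases were 1298, 1265, 1084 and 1392 in the P1 samples and 722, 413 and 461 in the P7 samples, again without overlap (exact p = 0.0286). Its percentile moved little, from 92.8 ± 0.781 to 90.9 ± 0.338, while its fold enrichment was 12.4 ± 0.733 at P1 and 15.9 ± 1.51 at P7 (SD), and ranked by fold enrichment the percentile difference was 1.72, in the other direction. The distal Ebf2 window shares bases with the proximal one, and its P1 and P7 samples overlapped.

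Among the mesenchymal factors, Twist1 and Prrx1 had lower peak percentiles at P7. The Twist1 percentile was 82.7, 83.6, 86.5 and 82.0 at P1, 74.7, 61.2 and 70.9 at P3, 80.3, 73.8 and 71.4 at P5 and 55.4, 62.2 and 63.3 at P7, with all later samples below P1 and a difference of -23.4 points at P7 (exact p = 0.0286). In the P1 samples peaks covered 2001, 1977, 2001 and 2001 of the 2001 bases of the window, and in the P7 samples 1828, 1841 and 1904 (exact p = 0.0286). The Prrx1 percentile was 78.1, 74.6, 67.1 and 76.9 at P1 and 60.5, 61.5 and 50.01 at P7 (exact p = 0.0286), while its RNA overlapped between these passages. With only peaks of a −log10 q of at least 5, and when ranked by fold enrichment, the exact p for Prrx1 was 0.0571. The fold enrichment itself overlapped between P1 and P7 for both genes. It was 5.93 ± 0.384 and 5.07 ± 0.771 for Twist1 and 5.12 ± 0.558 and 4.44 ± 0.544 for Prrx1 (SD). Prrx2 (43.3 ± 7.71 at P1, 39.5 ± 13.5 at P7, SD) and Twist2 (79.2 ± 3.10 and 79.8 ± 4.30), whose RNA rose, overlapped between P1 and P7 (exact p = 0.657 and 0.8286). The Twist1 promoter is shown as the one among these genes in which percentile and covered bases both fell, and it holds none of the 4 motifs.
Twist1 promoter, chr12:33957421-33957670, + strand: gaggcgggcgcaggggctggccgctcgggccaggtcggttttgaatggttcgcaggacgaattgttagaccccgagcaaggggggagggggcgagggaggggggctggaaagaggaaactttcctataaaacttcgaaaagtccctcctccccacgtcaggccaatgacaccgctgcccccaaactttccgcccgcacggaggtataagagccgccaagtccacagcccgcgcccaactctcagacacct

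In covered bases, 5 of the 15 start regions were lower at P7 without overlap (Ebf2 proximal, Ebf3, Runx2 proximal, Runx3 distal and Twist1) and 0 were higher. Over all start regions 38.2% were lower and 2.86% higher, so a lower coverage at P7 was common. The promoters of the members were also searched for 4 motifs on both strands, the EBF consensus TCCCNNGGGA, the RUNX consensus TGTGGTT, the E-box CATCTG bound by TWIST dimers and the homeodomain core TAATTA, which do not overlap each other in the sequences shown. In the 12 promoter entries of 9 members, 0 held the EBF motif, 2 the RUNX motif, 0 the E-box and 1, that of Prrx1, the homeodomain core. Of all 32851 promoters of the same 250 bases, 0.779%, 4.4%, 14.4% and 4.84% held them.

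Over the whole genes with 10 kb on each side, 3 members had fewer peaks in every P7 sample than in every P1 sample and 0 had more, beside 16.5% and 11.4% of all genes. Ebf3 had 6.23, 7.56, 7.50 and 6.51 peaks per 100000 peaks of the sample at P1 and 4.49, 4.75 and 4.52 at P7 (exact permutation test, p = 0.0286). Ebf2 had 18.1, 17.4, 15.01 and 15.4 at P1 and 12.5, 13.8 and 13.1 at P7 (exact p = 0.0571). For Twist1 the values were 2.83, 3.49, 3.22 and 4.73 and 1.497, 1.73 and 2.71 (exact p = 0.0571), and without the flanks its difference was 0.058 peaks per 100000 in the other direction. The Ebf1 gene, which spans 390.0 kb, carried the most, 40.6 ± 1.13 at P1 and 40.1 ± 3.19 (SD) at P7.

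When peaks of all samples were merged, the members and their flanks held 441 accessible regions, of which 237 had a peak in every P1 or in every P7 sample and 138 in all 13 samples. Of the 237, 15 had a peak in every P7 and no P1 sample and 5 in every P1 and no P7 sample. Over all such regions of the genome these shares were 9.19% and 1.55%. Ebf1 held 5 of the 15, Runx2 4, Runx1 3, and Ebf2, Runx3 and Prrx1 1 each. Ebf1 and Twist1 each held 2 of the 5 P1 regions and Ebf2 1. An intronic region of Runx2, 17.2 kb into the gene, had no peak in P1 and P3 samples, fold enrichments of 2.71, 4.29 and 0 in the P5 samples, where 0 stands for no peak, and 5.28, 5.96 and 5.54 at P7. A region upstream of Twist1, with its summit 1616 bases before the start, had fold enrichments of 2.55, 1.84, 2.48 and 2.44 at P1 and no peak in any later sample. Within an Ebf1 intron, a P1 region 109 kb from the start (2.64, 3.43, 2.79 and 3.94 at P1, 0, 0 and 3.16 at P3, 3.48, 3.22 and 3.63 at P5) lay near a P7 region 104 kb from it (2.38, 3.09 and 4.19 at P7, 3.84, 3.04 and 2.15 at P5 and 0 in all P3 samples). The summit and 100 bases on each side of these 3 intronic regions are shown, with matches to the 4 motifs in capitals. The Runx2 region and the P7 region of Ebf1 each hold 1 E-box, and the P1 region of Ebf1 holds 2 RUNX matches and 1 homeodomain core.
Runx2 intron, P7 region, chr17:44797495-44797695, - strand: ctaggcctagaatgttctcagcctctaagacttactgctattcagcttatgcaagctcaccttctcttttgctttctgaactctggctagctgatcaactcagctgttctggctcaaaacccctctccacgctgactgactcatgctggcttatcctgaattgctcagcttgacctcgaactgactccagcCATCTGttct
Ebf1 intron, P1 region, chr11:44727491-44727691, + strand: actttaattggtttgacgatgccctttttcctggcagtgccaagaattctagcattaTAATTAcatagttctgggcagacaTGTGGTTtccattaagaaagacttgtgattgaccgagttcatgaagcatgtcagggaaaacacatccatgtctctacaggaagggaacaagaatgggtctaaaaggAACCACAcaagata
Ebf1 intron, P7 region, chr11:44722493-44722693, + strand: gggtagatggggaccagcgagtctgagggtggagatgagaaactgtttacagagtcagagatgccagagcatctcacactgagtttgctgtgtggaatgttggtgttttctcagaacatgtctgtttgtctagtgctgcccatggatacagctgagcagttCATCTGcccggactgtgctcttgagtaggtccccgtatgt

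Across the genome, peaks at P7 held the EBF consensus less often than peaks at P1. The 142384 highest ranked peaks of each sample were searched within 100 bases of the summit. The EBF consensus was in 1.29, 1.34, 1.29 and 1.37% of windows in the 4 P1 samples, in 1.30, 1.26 and 1.28% at P3, 1.33, 1.26 and 1.29% at P5 and 1.10, 1.05 and 1.03% at P7. All P7 samples were below all others, and the difference from P1 was -0.263 percentage points (exact permutation test, p = 0.0286, adjusted p over the 4 motifs 0.0381). The RUNX consensus was in 8.87, 9.05, 8.97 and 9.12% at P1, 9.54, 9.48 and 9.42% at P3, 9.65, 9.93 and 9.76% at P5 and 9.19, 8.96 and 9.04% at P7. P3 and P5 were above both P1 and P7 in every sample, and P7 overlapped P1 (exact p = 0.571). The homeodomain core was in 4.62% ± 0.170 of windows at P1 and 3.898% ± 0.124 (SD) at P7, without overlap (exact p = 0.0286). The E-box was in 22.2% ± 0.240 at P1, 20.03% ± 0.199 at P3 and 21.5% ± 0.135 at P7 (P7 against P1, exact p = 0.0286), with an exact p of 0.0571 when all peaks or 50 bases on each side were used. The mean GC content of the windows moved with passage as well, from 48.8% at P1 to 48.2% at P7 (exact p = 0.0286), and its part in these shares was not tested. The plot of motif matches shows both.

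**Figure D3:**
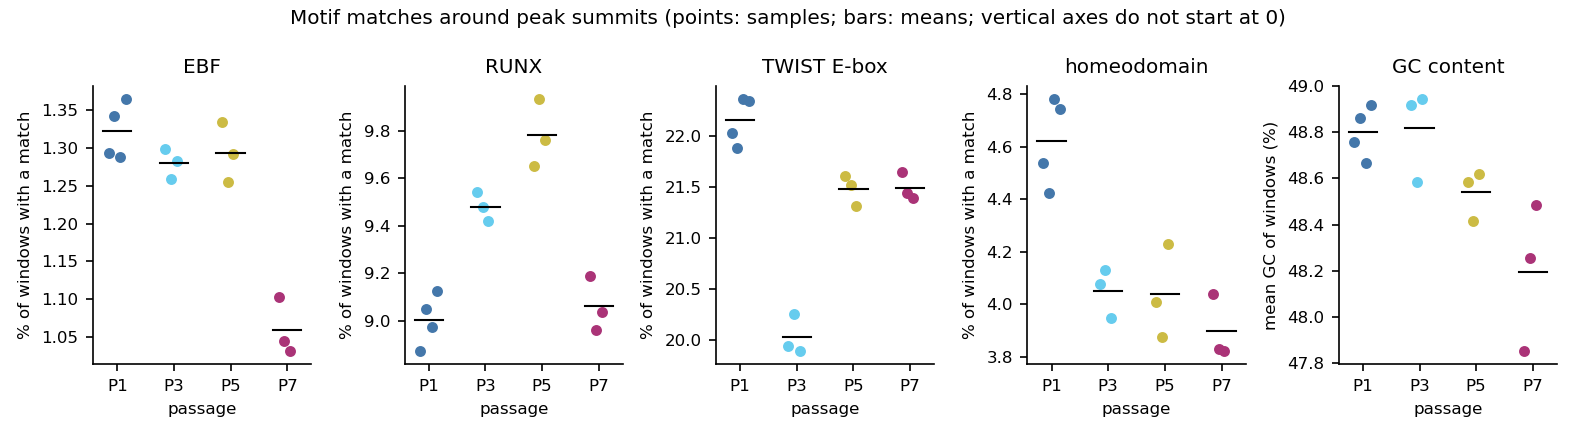
Share of peak windows with a match to each of 4 consensus sequences, and mean GC content of the windows (vertical axes in %, not starting at 0), against passage, with 1 point per ATAC-seq sample and bars at the means. The EBF share falls from 1.29% at P5 to 1.06% at P7, and the RUNX share is highest at P5, at 9.78%.

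E2f4 overexpression moved the EBF genes and Prrx1 down and Runx3 up. The E2f4 level was 1118 and 1179.8 CPM in the overexpressing libraries and 35.5 and 47.5 in the vector libraries. Of the 10 members, 4 were higher (Runx1, Runx3, Prrx2 and Twist1), beside 28.9% of all genes, and 4 were lower (Ebf1, Ebf2, Ebf3 and Prrx1), beside 28.2%. Runx3 had 32.7 and 33.0 CPM with E2f4 and 8.38 and 9.80 with the vector, a 3.63-fold rise with a log2 fold change of 1.86 (SE 0.143, adjusted p = 7.88e-06 from edgeR). Ebf1 had 29.3 and 25.04 against 67.1 and 65.99 CPM, a change of -1.29 (SE 0.124, adjusted p = 2.32e-05 from edgeR). Prrx1, the homeodomain factor gene, had 481 and 434 against 1028 and 911 CPM, a change of -1.08 (SE 0.107, adjusted p = 2.62e-05 from edgeR). Ebf2 (0.509 and 0.334 against 0.917 and 1.498 CPM) and Ebf3 (2.84 and 1.67 against 4.19 and 4.90 CPM) were lower as well. With DESeq2 the calls of Ebf2 (adjusted p = 0.108) and Runx1 (adjusted p = 0.0595) were lost. The call of Ebf2 was also lost without replicate 2 of vector or replicate 2 of E2f4 (-1.21 to -1.08, adjusted p = 0.147 to 0.151 from edgeR), that of Runx1 without replicate 1 or 2 of E2f4 (0.27 to 0.32, adjusted p = 0.162 to 0.256 from edgeR), that of Ebf3 without replicate 2 of E2f4 (-0.67, adjusted p = 0.104 from edgeR) and that of Prrx2 without replicate 1 of vector (0.22, adjusted p = 0.0965 from edgeR). Without replicate 2 of vector Prrx2 was at 0.94.

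In this experiment the GC trend separated the groups, with 0.54 and 0.89 in the overexpressing and -0.95 and -0.48 in the vector libraries. After the trend was removed, the calls of the GC-rich genes Prrx2 and Twist1 were lost, at -0.16 (adjusted p = 0.238 from edgeR) and 0.021 (adjusted p = 0.837 from edgeR), and Twist2 became lower, at -0.68 (adjusted p = 1.13e-04 from edgeR). Runx3 remained higher at 1.37 (adjusted p = 5.10e-06 from edgeR), and Ebf1 and Prrx1 remained lower at -0.90 (adjusted p = 1.55e-05 from edgeR) and -0.42 (adjusted p = 6.57e-04 from edgeR). Markers of other cells also differed between the groups: the 12 keratinocyte markers summed to 89.7 to 92.5 CPM with E2f4 and 55.5 to 59.6 with the vector, with 1 and 5 of them at 0, and the 12 muscle markers to 23.6 to 24.4 and 66.9 to 76.8, with Myog, Myod1, Myf5 and Pax7 at 0 in all 4 libraries. The 10 endothelial markers summed to 67.2 to 73.1 and 38.6 to 43.4 and the 8 mural markers to 567 to 602 and 432 to 504. Their part in the result was not tested.

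**Figure D4:**
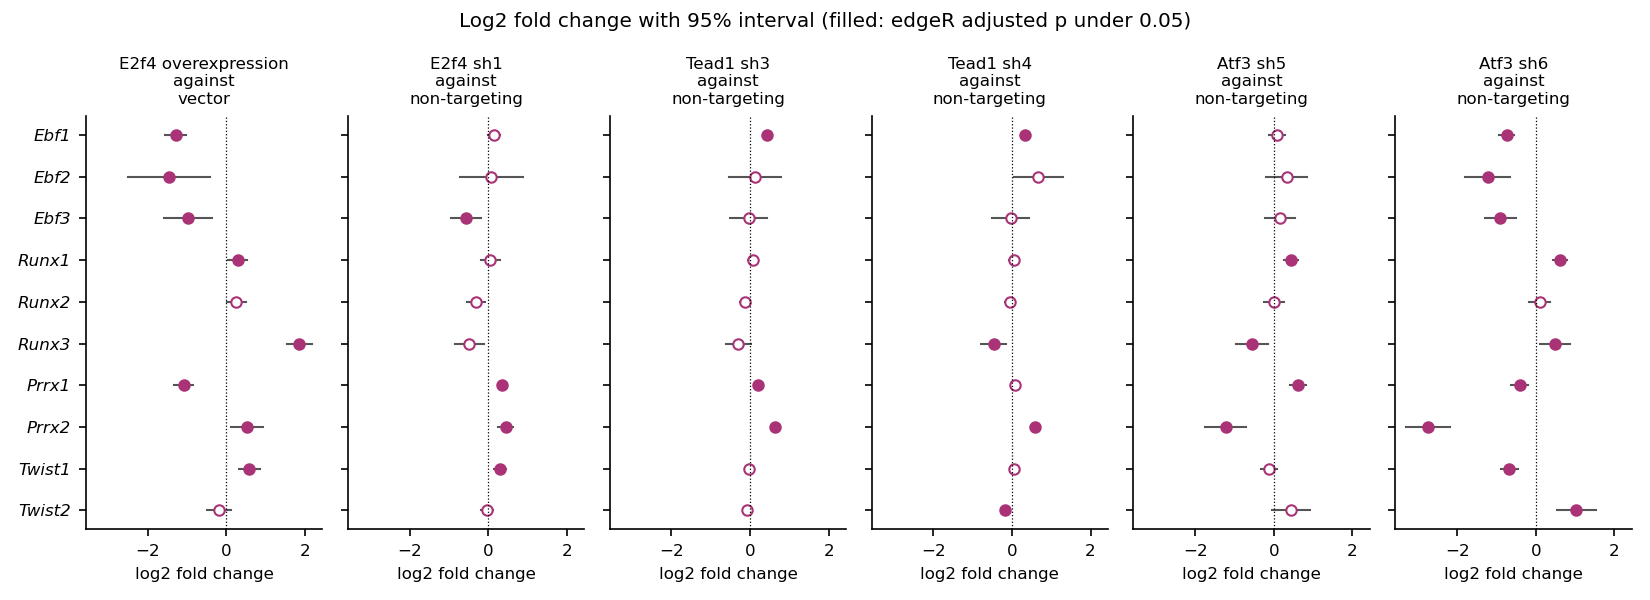
Log2 fold change of each of the 10 genes (horizontal axes) in the 6 comparisons with control libraries, with 95% intervals. Filled points have an edgeR adjusted p under 0.05. Prrx2 lies at -2.75 with Atf3 sh6 and at 0.64 with Tead1 sh3, and Runx3 at 1.86 with E2f4 overexpression. Comparisons within the Tead1 and within the Atf3 experiment share their control libraries.

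Knockdown of E2f4, made in proliferating rather than pre-senescent cells, gave smaller changes. The level of E2f4 also changed less than with overexpression, so the sizes are not directly comparable. E2f4 itself had 21.6, 20.4 and 21.8 CPM with sh1 and 59.6, 60.8 and 59.6 with nt, a log2 fold change of -1.50 (SE 0.0890, adjusted p = 2.14e-07 from edgeR). Prrx1, Prrx2 and Twist1 were higher, beside 10% of all genes, and Ebf3 was lower, beside 7.79%. Prrx1 had 535, 551 and 540.3 CPM against 414, 409 and 442, a change of 0.36 (SE 0.0575, adjusted p = 6.22e-04 from edgeR). Prrx2 had 107, 114 and 89.4 against 78.1, 78.1 and 71.3, a change of 0.45 (SE 0.0888, adjusted p = 0.00295 from edgeR), and Twist1 104, 101 and 101 against 81.5, 87.8 and 80.3, a change of 0.30 (SE 0.0690, adjusted p = 0.00867 from edgeR). All 3 sh1 libraries were above all 3 nt libraries for each of these 3 genes. The Twist1 call was lost without replicate 1 of nt (0.28, adjusted p = 0.0593 from edgeR). The call of Ebf3, -0.56 (SE 0.175, adjusted p = 0.0374 from edgeR), was lost with DESeq2 (adjusted p = 0.113), with the replicate number as a block (-0.56, adjusted p = 0.0518 from edgeR) and without replicate 2 or 3 of nt or any of replicates 1, 2 or 3 of sh1 (-0.58 to -0.46, adjusted p = 0.0521 to 0.166 from edgeR). Runx3 at -0.48 (SE 0.173, adjusted p = 0.0708 from edgeR) did not pass, with a 95% interval of -0.85 to -0.11. The summed muscle markers were 113 to 137 CPM with sh1 and 75.9 to 78.4 with nt, with Myog, Myod1 and Myf5 at 0 in all libraries. The 8 mural markers summed to 519 to 571 and 364 to 402 and the 15 macrophage markers to 18.7 to 24.6 and 9.25 to 15.1 CPM in the same order, also without overlap. Those of the 16 fibroblast markers were 41968 to 43644 and 52455 to 53042. The part of these markers in the changes was not tested.

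Knockdown of Tead1, a factor that works with YAP1 and WWTR1, raised Ebf1 and Prrx2 with both hairpins. Tead1 had 268, 284 and 285 CPM with sh3, 315, 313 and 320.4 with sh4 and 572, 508 and 545 with nt. With sh3, Ebf1, Prrx1 and Prrx2 were higher, beside 17.6% of all genes, and 0 members were lower, beside 17.7%, in edgeR. DESeq2 likewise called 0 members lower, and 0 had an unadjusted p under 0.05 with a lower level. With sh4, Ebf1 and Prrx2 were higher, beside 14.4%, and Runx3 and Twist2 lower, beside 14.7%. Prrx2 had 158, 158 and 167 CPM with sh3, 158, 146 and 156 with sh4 and 106, 97.0 and 106 with nt, which is 0.64 (SE 0.0476, adjusted p = 2.83e-12 from edgeR) and 0.58 (SE 0.0476, adjusted p = 6.04e-11 from edgeR) on the log2 scale. Ebf1 had 85.9, 95.4 and 97.1, 84.3, 86.3 and 90.2 and 69.5, 65.8 and 71.4 CPM in the same order, which is 0.43 (SE 0.0536, adjusted p = 1.30e-07 from edgeR) and 0.34 (SE 0.0537, adjusted p = 1.27e-05 from edgeR). For both genes every knockdown library was above every nt library. The hairpins did not differ in Ebf1 (-0.094, 95% interval -0.20 to 0.013) or Prrx2 (-0.069, -0.16 to 0.026) by a difference that passed. Both comparisons use the same nt libraries. By the hairpin sequences in the paper's supplement, sh3 and sh4 also target nearly the same stretch of Tead1. Their agreement is therefore not that of independent hairpins. Twist2 with sh4 changed by -0.17 (SE 0.0423, adjusted p = 0.00276 from edgeR). The call of Runx3 with sh4 (-0.46, SE 0.156, adjusted p = 0.0257 from edgeR) was lost with DESeq2 (adjusted p = 0.0554) and without replicate 1 or 3 of nt or replicate 1 or 2 of sh4 (-0.46 to -0.34, adjusted p = 0.0615 to 0.149 from edgeR).

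Among the adipogenic genes downstream of EBF factors, 7 of 8 tested were higher and 0 lower with sh3, with a median log2 fold change of 0.56, and 6 were higher and 0 lower with sh4, with a median of 0.50. The medians over all genes tested were 0.0039 and 0.0011. With E2f4 overexpression, where the 3 EBF genes were lower, 4 of 8 tested adipogenic genes were higher and 2 lower. Their median was 0.58 (all genes tested, 0.0088). With Atf3 sh6, where the EBF genes were also lower, 0 of 8 were higher and 3 lower. The median there was -0.34 (all genes tested, -0.019). Whether this list follows the EBF levels was not tested. Of the 21 partners and inhibitors, 7 were higher and 4 lower with sh3, and 7 and 2 with sh4. The GC trend stayed between -0.017 and 0.046 in the sh4 libraries and between -0.046 and 0.021 in nt. The endothelial markers summed to 50.8 to 53.0 CPM with sh3, 52.4 to 58.4 with sh4 and 82.9 to 87.6 with nt. In the same order the muscle markers summed to 65.2 to 75.3, 73.4 to 83.9 and 98.6 to 99.8, the mural markers to 545 to 609, 549.9 to 599 and 447 to 490.2, and the keratinocyte markers to 18.7 to 23.1, 16.3 to 19.02 and 13.2 to 14.7 CPM. For each of these 4 lists the knockdown and nt libraries did not overlap, Myog, Myod1 and Krt14 were at 0 in all 9 libraries, and their part in the results of the members was not tested.

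Knockdown of Atf3, a member of the AP-1 superfamily, lowered Prrx2 with both hairpins, and the hairpins differed in most other members. The share of all genes that differed between these hairpins was not computed. Atf3 was low, with 1.46, 2.10 and 0.451 CPM with sh5, 1.51, 1.56 and 2.09 with sh6 and 3.31, 2.85 and 2.77 with nt. Its change was -1.14 (SE 0.393, adjusted p = 0.0447 from edgeR) with sh5 and -0.79 (SE 0.387, adjusted p = 0.114 from edgeR) with sh6, so the fall with sh6 did not pass this RNA-seq test. Every sh6 library was still below every nt library in Atf3. The paper also checked the knockdown by RT-qPCR and immunoblot. Prrx2 had 92.7, 101 and 44.8 CPM with sh5, 29.99, 26.6 and 26.4 with sh6 and 176, 188 and 194 with nt, with log2 fold changes of -1.22 (SE 0.233, adjusted p = 0.00385 from edgeR) and -2.75 (SE 0.249, adjusted p = 9.56e-06 from edgeR). All libraries of either hairpin were below all nt libraries. Replicate 3 of sh5 stood apart from its group over all genes, at 59.4 and 63.7 times the chi-square that sampling alone gives against replicates 1 and 2, which differed from each other at 3.29. Without it, Prrx2 was still lower with sh5, at -0.91 (adjusted p = 3.08e-07 from edgeR), Runx1 and Prrx1 were higher, at 0.51 (adjusted p = 6.26e-05 from edgeR) and 0.56 (adjusted p = 5.08e-05 from edgeR), and Runx3 did not pass. Twist2 had 263, 258 and 124 CPM with sh5 and 153, 162 and 162 with nt, a change of 0.44 (SE 0.220, adjusted p = 0.141 from edgeR) that passed without replicate 3, at 0.74 (adjusted p = 2.38e-07 from edgeR). With sh5, Runx1 and Prrx1 were higher, beside 17.7% of all genes, and Runx3 and Prrx2 lower, beside 18.1%. With sh6, Runx1, Runx3 and Twist2 were higher, beside 23.8%, and Ebf1, Ebf2, Ebf3, Prrx1, Prrx2 and Twist1 lower, beside 26%.

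Runx1 rose with both hairpins, from 48.7, 51.1 and 46.1 CPM with nt to 65.7, 70.4 and 61.2 with sh5 (0.44, SE 0.0805, adjusted p = 0.00340 from edgeR) and 72.1, 75.3 and 77.4 with sh6 (0.62, SE 0.0806, adjusted p = 1.10e-04 from edgeR). Prrx1 went up with sh5 and down with sh6: it had 515, 485 and 473 CPM with nt, 743, 682 and 830.1 with sh5 and 329, 374 and 405 with sh6, and the hairpins differed by -1.02 (SE 0.0961, adjusted p = 1.40e-05 from edgeR). Runx3 went the other way, with 5.68, 7.41 and 7.02, 4.87, 5.22 and 3.55 and 8.54, 9.47 and 10.2 CPM and a difference of 1.05 (SE 0.179, adjusted p = 7.42e-04 from edgeR). Ebf1 had 104, 94.8 and 95.2 CPM with nt, 94.4, 101 and 114 with sh5 and 56.6, 56.8 and 62.2 with sh6, a change of -0.74 (SE 0.0884, adjusted p = 6.26e-05 from edgeR) for sh6. Ebf2 and Ebf3 with sh6 changed by -1.22 (SE 0.260, adjusted p = 0.00287 from edgeR) and -0.91 (SE 0.178, adjusted p = 0.00175 from edgeR), Twist1 by -0.68 (SE 0.0975, adjusted p = 2.32e-04 from edgeR) and Twist2 by 1.03 (SE 0.221, adjusted p = 0.00302 from edgeR). The call of Runx3 with sh5, -0.55 (SE 0.179, adjusted p = 0.0355 from edgeR), was lost without replicate 2 or 3 of nt, replicate 1 or 3 of sh5 or any of replicates 1, 2 or 3 of sh6 (-0.60 to -0.38, adjusted p = 0.0528 to 0.119 from edgeR), and that with sh6, 0.49 (SE 0.173, adjusted p = 0.0360 from edgeR), without replicate 1 or 3 of nt or replicate 2 or 3 of sh6 (0.38 to 0.53, adjusted p = 0.0694 to 0.130 from edgeR).

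Other values moved with these groups. The GC trend was -0.32, -0.21 and -1.30 in the sh5 libraries, 0.38, 0.18 and -0.029 in sh6 and 0.26, 0.57 and 0.52 in nt. With the trend removed, Prrx2 was still lower, at -0.53 (adjusted p = 1.81e-04 from edgeR) with sh5 and -2.49 (adjusted p = 5.43e-10 from edgeR) with sh6, whereas the Runx3 call with sh5 was lost (-0.12, adjusted p = 0.591 from edgeR), Twist2 with sh5 passed (0.84, adjusted p = 6.00e-04 from edgeR), and Ebf1 with sh5 turned to -0.19 (adjusted p = 0.0302 from edgeR) and Twist1 to 0.51 (adjusted p = 0.0836 from edgeR). The plot of fold changes with and without the trend shows these shifts. The 12 muscle markers summed to 197 to 218 CPM with sh6, 14.6 to 18.7 with sh5 and 38.2 to 39.8 with nt, with Myh8, Myf5 and Pax7 at 0 in all 9 libraries, and their part in the sh6 result was not tested. In the same order the endothelial markers summed to 54.7 to 63.7, 91.8 to 102.5 and 74.1 to 75.9, the mural markers to 243 to 255, 106 to 200.6 and 290.0 to 322, and the macrophage markers to 13.9 to 14.4, 19.7 to 25.3 and 17.4 to 19.6 CPM, which was not tested as a part of the results either. Of 32 tested genes among the other mesenchymal factors, 3 were higher and 18 lower with sh6, and 3 and 9 with sh5. Of the 21 partners, 2 were higher and 11 lower with sh6. Of the 16 fibroblast markers, 1 was higher and 12 were lower with sh6, against 5 and 2 with sh5.

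**Figure D5:**
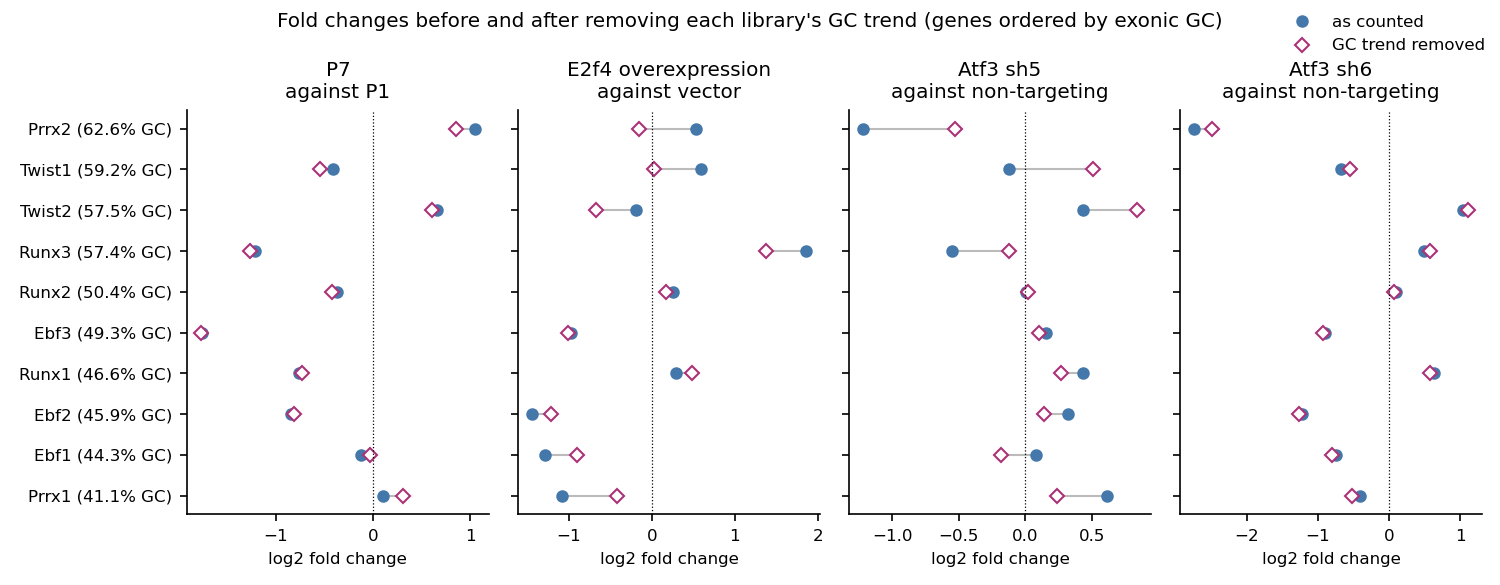
Log2 fold change of each gene (horizontal axes) as counted and after the GC trend of each library was removed, with genes ordered by exonic GC content from Prrx2 (62.6%) to Prrx1 (41.1%). For P7 against P1 Prrx1 moves from 0.11 to 0.31, while with E2f4 overexpression Prrx2 moves from 0.54 to -0.16.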

How the data were processed

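RNA-seq was measured in 44 libraries and ATAC-seq in 13 samples of mouse skin fibroblasts, grouped by GEO's labels. Bisulfite samples of the series were not analysed here. Before deposit the authors used Trimmomatic 0.39 for trimming, HISAT2 2.2.1 for alignment of the RNA-seq reads to the mm10 build, and HTSeq 0.12.4, ignoring strand, for counting, and the deposited values are raw counts per gene. Totals were 9147324 to 27552949 reads on genes, and rows that name no gene, 7.50 to 16.8% of the reads in the knockdown and overexpression libraries, were left out. For ATAC-seq the authors aligned reads with Bowtie2, for which the submitters' processing notes list version 2.3.5.1, and called peaks in each sample with MACS2, whose version for these samples was not given in the sources used here. The deposited peak lists give each peak's fold enrichment, a ratio over the local background. The deposited lists also hold the −log10 p and −log10 q that MACS2 computed for the authors, and no read counts, so the depth is unknown.

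Each RNA-seq experiment was fitted across all its groups with edgeR 4.0.16 in R 4.3.3 (TMM scaling, filterByExpr, quasi-likelihood F-test, Benjamini-Hochberg adjustment, threshold 0.05), which tested 13442 genes for the passages, 13199 for E2f4 overexpression and 12310, 13012 and 13345 for the E2f4, Tead1 and Atf3 knockdowns. The fit was tested on simulated data. Gene lengths, GC content and sequences came from RefSeq (GRCm38.p6), in which 24435 genes matched by symbol. Peaks with several summits were merged, and ATAC-seq groups were compared by exact two-sided permutation tests in Python 3.11.15. Replicate pairs differed beyond counting noise, at 2.75 to 63.7 times the chi-square that sampling alone gives, so none was counted as the same library. DESeq2 1.42.0 and other filters, scalings, windows and leave-one-out fits were tried as alternatives.

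The members and gene lists were chosen with earlier results of these data known. The genes named are the 10 members, the targets E2f4, Tead1 and Atf3, at most 3 genes of each list with the greatest change among those that passed for P7 against P1, and the 2 genes most correlated with each member.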

Additional observations from a re-analysis of the deposited data

Results flagged for a closer look

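Among 55 groups of 4 libraries or samples looked at for a sample far from the others, 4 held such a sample, where chance gives about 1 in 20. They were replicate 2 of P1 for Ebf3, at 4.55 CPM, replicate 4 of P7 for Runx3, at 21.9 CPM, replicate 1 of P1 at the distal Ebf2 start, with a peak percentile of 34.2, and replicate 4 of P1 at the distal Runx1 start, at 14.7. The overlapping windows of the Ebf2 starts had the same percentile in the other P1 samples, and replicate 1 had 92.4 at the proximal start. At the distal Runx1 start the other P1 samples had no peak.

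Where 2 hairpins against the same gene were used, their effects differed beyond the spread between libraries for 9 of the results, by the test of sh4 against sh3 or of sh6 against sh5 in edgeR. The share of all genes that differed between the hairpins was not computed, so whether this count is unusual is unknown. With Tead1, Prrx1 was lower with sh4 than with sh3 by -0.12 on the log2 scale (adjusted p = 0.0393 from edgeR), a call lost without replicate 3 of nt or any 1 of the sh3 and sh4 libraries (adjusted p = 0.0693 to 0.136) and with the replicate number as a block (adjusted p = 0.0529). With Atf3, sh6 lay below sh5 in Ebf1 (-0.82), Ebf2 (-1.55), Ebf3 (-1.06), Prrx1 (-1.02), Prrx2 (-1.52) and Twist1 (-0.56), and above it in Runx3 (1.05) and Twist2 (0.60). For these 6 genes all sh6 libraries were below all sh5 libraries, and for Runx3 and Twist2 all were above. The difference in Twist2 (adjusted p = 0.0422 from edgeR) was lost without any 1 of the nt or sh6 libraries (adjusted p = 0.0587 to 0.105) and after removal of the GC trend, at 0.27 (adjusted p = 0.0731). Without replicate 3 of sh5 the Twist2 difference was 0.30 (adjusted p = 2.58e-04 from edgeR).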

How the results depend on the processing

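The counts for P7 against P1 kept their 2 higher and 6 lower members in every fit that left out 1 library. Over all comparisons, 839 fold changes of members stayed on their side of the threshold under the other alternatives, while 17 lost a call, 14 gained one and 11 changed sign. When 1 library was left out these numbers were 1337, 56, 15 and 32. The cause of these changes was not tested. Ebf2 and Ebf3 are limited by their low counts, and the ATAC-seq lists by the small number of samples.

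The counts that moved by more than 1.5 times were as follows. With DESeq2, 2 members were higher for P7 against P5, 0 were lower with E2f4 sh1 and 1 was lower with Tead1 sh4. With no filter on low counts, 1 was lower for P3 against P1 and 2 with E2f4 sh1. In fits of only the 2 groups compared, 2 were higher for P3 against P1, 1 was lower for P7 against P5 and 1 was lower with Atf3 sh5. With the GC trend removed, an alternative chosen after seeing the data, 1 was lower for P3 against P1, 2 were higher for P7 against P5 and 2 were higher with E2f4 overexpression. With the same number of peaks from every sample, 1 start region was higher at P7. The change of the E-box share was -0.642 percentage points with all peaks and -0.514 with 50 bases on each side.

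When 1 library was left out, the higher and lower members ranged from 1 to 2 and 1 to 2 for P3 against P1, 0 to 2 and 1 to 4 for P5 against P3, 1 to 2 and 2 to 4 for P7 against P5, and 2 to 2 and 4 to 5 for P7 against P3. They ranged from 3 to 4 and 2 to 5 with E2f4 overexpression, 2 to 3 and 0 to 1 with E2f4 sh1, 3 to 3 and 0 to 1 with Tead1 sh3, 2 to 3 and 1 to 2 with Tead1 sh4, 2 to 3 and 1 to 2 with Atf3 sh5, and 2 to 3 and 6 to 6 with Atf3 sh6. For start regions at P7 they ranged from 2 to 2 and 5 to 6 in percentile and 0 to 1 and 5 to 7 in covered bases, and for peaks across the genes 0 to 1 and 3 to 4. The motif shares changed by -0.284 to -0.249 percentage points for EBF, -0.0044 to 0.109 for RUNX, -0.758 to -0.595 for the E-box and -0.795 to -0.670 for the homeodomain core, in designs that cannot give a p under 0.05.

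With the GC trend removed, the sign turned for Prrx1 (-0.085) and Twist2 (0.054) for P3 against P1, Ebf1 (0.13), Prrx1 (0.0999) and Twist1 (-0.081) for P5 against P3, Twist1 for P7 against P3 (-0.20), Prrx2 with E2f4 overexpression (-0.16), Twist2 with E2f4 sh1 (0.0051), and Ebf1 (-0.19) and Twist1 (0.51) with Atf3 sh5. It also turned for the distal Ebf1 percentile with a 500-base window (-57.6), the proximal Ebf2 percentile by fold enrichment (1.72) and the Twist1 peaks per 100000 without flanks (0.058). On leaving out 1 library, values that had not passed crossed 0 for Prrx2 (-0.0012 to 0.17) for P3 against P1, Ebf1 (-0.11 to 0.0086), Ebf3 (-0.45 to 0.17) and Twist1 (-0.0086 to 0.27) for P5 against P3, Ebf2 (-0.070 to 0.21) and Twist1 (-0.19 to 0.083) for P7 against P5, and Prrx1 (-0.014 to 0.065) for P7 against P3. The same held for Ebf2 (-0.29 to 0.30), Runx1 (-0.077 to 0.21) and Twist2 (-0.082 to 0.052) with E2f4 sh1, Ebf2 (-0.038 to 0.51) and Ebf3 (-0.11 to 0.036) with Tead1 sh3, Ebf3 (-0.082 to 0.030) and Runx1 (-0.021 to 0.11) with Tead1 sh4, Ebf3 (-0.072 to 0.075) and Runx1 (-0.068 to 0.025) for Tead1 sh4 against sh3, and Runx2 with Atf3 sh5 (-0.11 to 0.16) and for Atf3 sh6 against sh5 (-0.055 to 0.21).

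Nothing in the labels says that a replicate number marks a shared animal or culture, and not every pair of libraries with the same number had deviations correlated over 0.1, so the main fits have no block. In the passage series these correlations were -0.26 to 0.28 (median 0.094), over 0.1 in 11 of 24 pairs, against a median of -0.022 and 12 of 72 pairs for unlike numbers. As a hint from the data, 10 of 16 passage libraries, 6 of 6 of E2f4 knockdown, 5 of 9 of Tead1 and 2 of 9 of Atf3 correlated best with their own number. With the replicate number as a block, 1 member was higher and 3 were lower for P3 against P1, 1 and 4 for P7 against P5, 2 and 6 for P7 against P1, 5 and 4 with E2f4 overexpression and 3 and 0 with E2f4 sh1. The added calls were Ebf3 for P3 against P1 (-0.72) and P7 against P5 (-0.95) and Runx2 with E2f4 overexpression (0.26), and the lost calls Ebf3 with E2f4 sh1 (-0.56) and Prrx1 for Tead1 sh4 against sh3 (-0.12). Runx2 with Atf3 sh5 turned to -0.0036. The block moved no other count.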
